A study of Homo sapiens with 36 samples.

Results

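MDA231 (MDA-MB-231) breast cancer cells exposed to selumetinib for 24 h were compared with the same cells without the drug, 3 arrays against 3. These 6 arrays, titled MDA231 with AZD6244 24h or siCONTROL and the letters A, B and C, belong to a series of 36 single-colour Affymetrix arrays in 12 groups. Each of the 17958 genes with a probe of a single gene symbol was described, and where a gene had several such probes the one of highest mean over the 36 arrays stood for it. MDA231 is an established line from a metastatic tumour that lacks hormone receptors and HER2 amplification, and it carries activating mutations in the RAS and RAF genes. In the 24 h group the cells had 10 nM of non-targeting siRNA and, for the last 24 h, 1 uM selumetinib (AZD6244), an allosteric inhibitor of the kinases MEK1 and MEK2. The siCONTROL cells had the same siRNA pool at 10 nM, with DMSO in place of the drug, so the controls were transfected cells too. All cells were harvested 96 h after transfection, and 1 dose was used. The other groups set beside these were MDA231 with 4 h of 1 uM selumetinib (3 arrays), and the lines SUM159PT and BT549 with 24 h of 1 uM selumetinib or as siCONTROL (12 arrays), all with the 10 nM non-targeting siRNA. Nothing in the labels ties the letters to separate cultures. The p-values therefore measure a spread that may be technical. It is the spread between arrays within groups, pooled over the 12 groups of the 36 arrays.

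The RAS, RAF, MEK and ERK kinases form a relay from growth factor receptors to the nucleus. Active ERK phosphorylates transcription factors, which switch on immediate early genes, then D-type cyclins and the machinery of DNA replication. The pathway restrains itself by inducing phosphatases of the DUSP family and the Sprouty and SPRED adaptors, so the RNA of these inhibitors falls when the kinase cascade is blocked and is widely read as a measure of pathway output. Cells can then adjust over hours, by renewed receptor signalling and by changes of cell state.

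Values are RMA log2 signals, on which a difference of 1 is a 2-fold change. A gene's level cannot be set against another gene's, because probes differ in brightness. Calls rest on limma's test of each gene, with a Benjamini-Hochberg adjusted p below 0.05 over all genes. On the 12 MDA231 arrays the medians were alike, but 2 of the 3 arrays of the 4 h group, B and C, had upper quartiles of 7.48 and 7.66, the lowest of the line. Of the line's markers, VIM, CD44 and AXL were bright, at 12.15, 12.07 and 11.63 in siCONTROL. Of 6 genes looked for as low in the line, ESR1, PGR and CDH1 were dim, at 4.09, 3.40 and 4.30 in siCONTROL, and ERBB2, EPCAM and GATA3 were not, at 7.32, 8.39 and 6.36. Probes differ in brightness, so these signals describe the markers and do not rank them. Of the 16 measured markers of blood and endothelial cells 1 was called at 24 h (6.25%), against 17.7% of all genes. It was the adhesion molecule PECAM1, at 5.72 ± 0.25 with selumetinib against 7.37 ± 0.23 in siCONTROL (SD, n = 3 each). The leukocyte marker PTPRC and the endothelial markers CDH5 and VWF averaged 4.14, 4.91 and 3.62 with selumetinib, against 3.95, 5.02 and 3.51 in siCONTROL.

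After 24 h, 3180 genes were called (17.7%): 1322 genes were higher and 1858 lower with selumetinib, which is 7.36% and 10.3% of the genes tested. Counts in the gene lists below are to be read beside these shares. At least 2-fold changes were fewer, 170 rises (0.947%) and 201 falls (1.12%). The median change over all genes was 0.02 on the log2 scale, with quartiles of -0.13 and 0.15. The arrays of the groups did not overlap for 3080 of the 3180 called genes, and over all genes 16.1% had all 3 selumetinib arrays above and 17.1% all 3 below siCONTROL. The split between rises and falls depended on scaling: of called genes 58.4% were lower as deposited, 52.9% after repeated quantile normalization and 67.4% with array medians aligned.

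**Figure D1:**
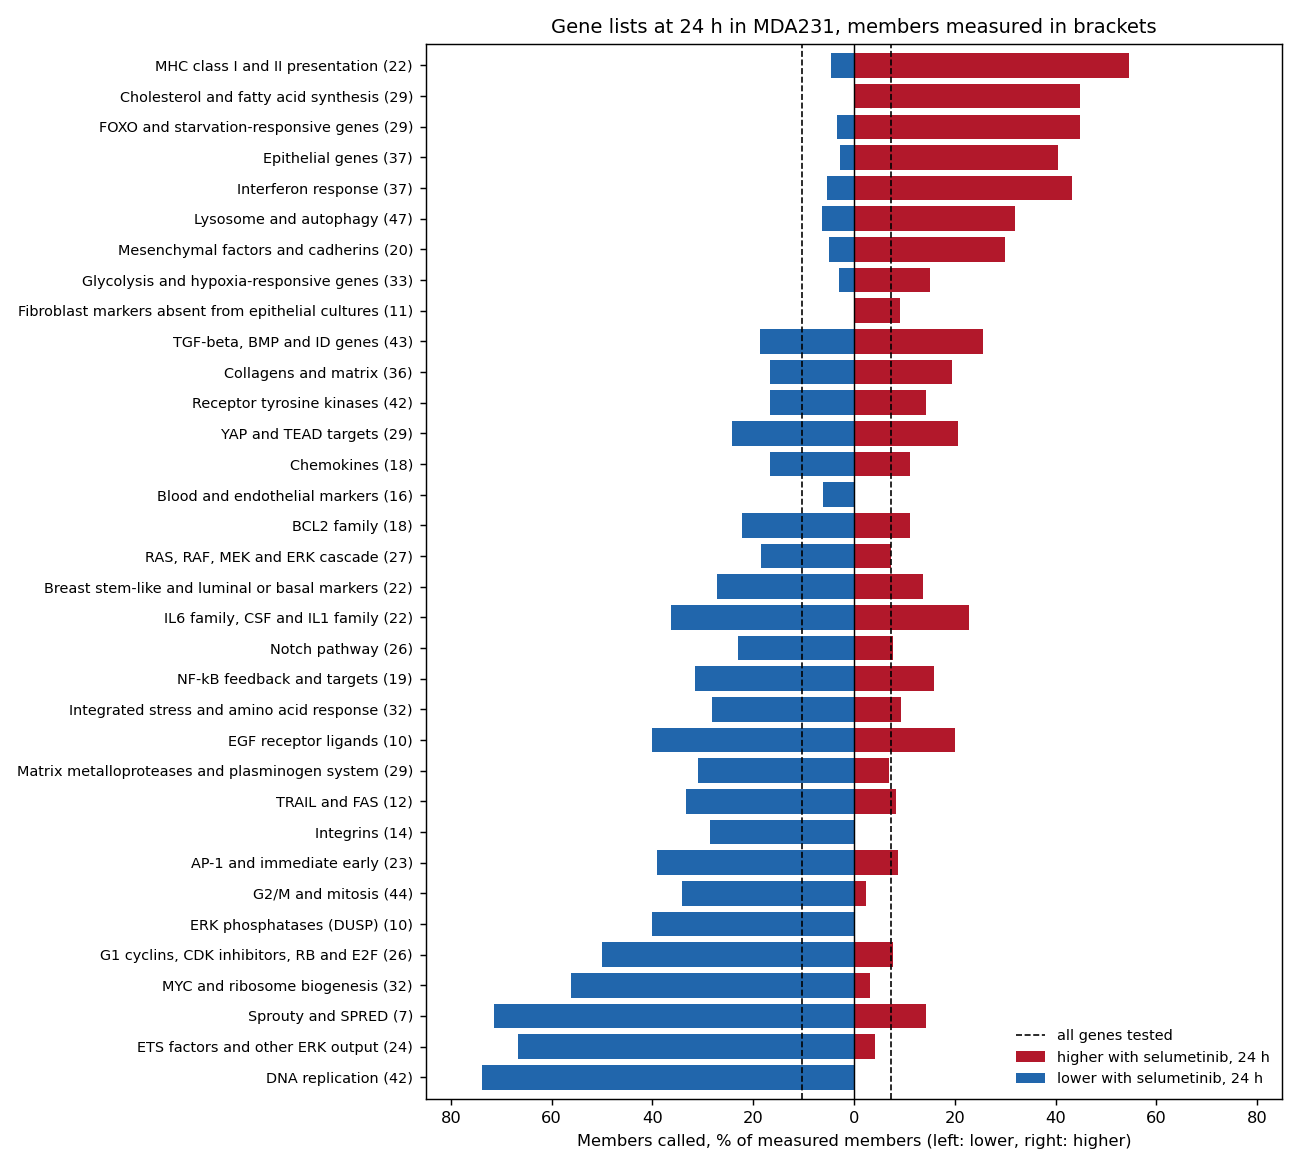
Bars give the share of measured members of each gene list that were called higher (right, red) or lower (left, blue) with selumetinib at 24 h against siCONTROL in MDA231, with the number measured in brackets and dashed lines at 7.36% and 10.3%, the shares over all genes. DNA replication, with 31 of 42 members lower, lies at one end and MHC presentation, with 12 of 22 higher, at the other.

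The feedback inhibitors of ERK were among the genes with the largest falls. Of 10 measured DUSP genes of the MAP kinase phosphatase group, 4 were lower and 0 higher, with a list median of -0.15. DUSP6, the cytoplasmic ERK phosphatase, had log2 signals of 8.39, 8.01 and 8.20 with selumetinib, against 11.55, 11.22 and 11.32 in siCONTROL. No array overlapped, and the level with the drug was 11.2% of siCONTROL (log2 change -3.16 ± 0.21, SE; adjusted p = 2.4e-13). DUSP5, a nuclear ERK phosphatase, had 8.18, 8.09 and 7.87 with selumetinib, against 10.69, 10.52 and 10.46 in siCONTROL, a change of -2.51 ± 0.16. DUSP4, the nuclear phosphatase that other groups of the series target with siRNA, had 8.91, 8.79 and 8.70 with selumetinib, against 10.15, 10.03 and 9.99 in siCONTROL, a change of -1.26 ± 0.17 (adjusted p = 1e-06). All 3 drug arrays lay below all 3 control arrays for both genes. DUSP1, which also acts on the stress kinases JNK and p38, changed by -0.83.

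Of the 7 Sprouty and SPRED genes 5 were lower and 1 higher, with a median of -0.87. SPRY4 had 6.62, 6.63 and 6.55 with selumetinib, against 9.92, 9.89 and 9.79 in siCONTROL, which is 10.4% of the control level (change -3.26 ± 0.22, adjusted p = 2.8e-13). The arrays within each group lay within 0.2 of each other. SPRY2 changed by -1.46 ± 0.20. The RAF-binding SPRED1 and SPRED2 changed by -0.89 and -0.87, and SPRY1 by -0.49. The member that rose was the dim SPRY3, by 0.32, and its call was lost under some of the alternatives tried.

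**Figure D2:**
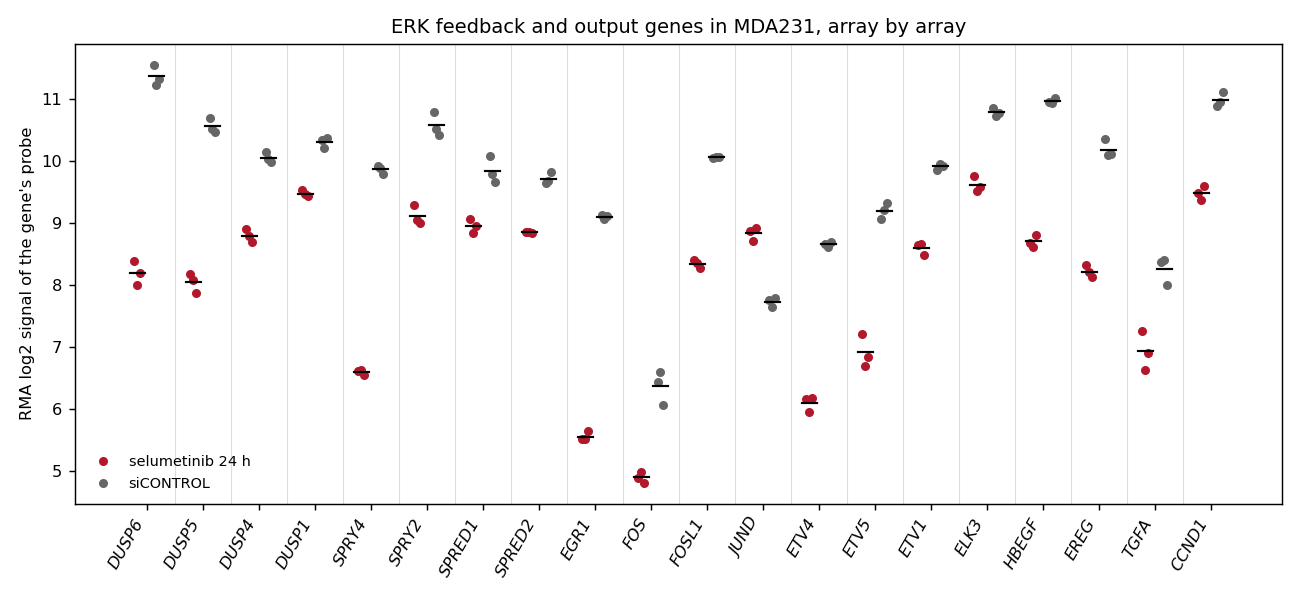
RMA log2 signal of each of 20 feedback and output genes on the 3 selumetinib 24 h arrays (red, left of each pair) and the 3 siCONTROL arrays (grey, right), with bars at the means. JUND is higher with selumetinib and the other 19 are lower, and no pair of groups overlaps.

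Of 24 measured ETS factors and other genes that follow ERK output, 16 were lower and 1 higher, with a median of -0.55. The PEA3 factors ETV4, ETV5 and ETV1, transcription factors stabilised and induced downstream of ERK, all fell, and the member that rose was the pseudokinase TRIB2 (0.57 ± 0.16). ETV4 had 6.17, 5.95 and 6.18 with selumetinib, against 8.66, 8.61 and 8.69 in siCONTROL, a change of -2.56 ± 0.19 (adjusted p = 7.2e-12). ETV5 changed by -2.28 ± 0.16 and ETV1 by -1.32 ± 0.11. Further falls were those of ELK3, an ETS factor of the serum response (-1.17 ± 0.12), the chromatin protein HMGA1 (-1.14 ± 0.11) and the pseudokinase TRIB1 (-1.23 ± 0.16).

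Of 23 immediate early and AP-1 genes, 9 were lower and 2 higher, with a median of -0.24. EGR1, a zinc finger factor induced within minutes of ERK activation, had 5.51, 5.52 and 5.65 with selumetinib, against 9.13, 9.06 and 9.11 in siCONTROL. The groups stood far apart relative to their spread, and the level was 8.6% of siCONTROL (change -3.54 ± 0.17, adjusted p = 1.1e-16). FOSL1 (FRA1), a FOS family member whose protein and RNA follow ERK, had 8.41, 8.36 and 8.28 with selumetinib, against 10.05, 10.06 and 10.07 in siCONTROL, a change of -1.71 ± 0.16. FOS changed by -1.47 ± 0.15, KLF4 by -1.18 ± 0.19 and CCN1 by -0.73 ± 0.11. The genes that rose were FOSL2, by 0.35, and JUND, the AP-1 partner that is not an immediate early gene in most cells, with 8.87, 8.72 and 8.92 with selumetinib, against 7.75, 7.65 and 7.79 in siCONTROL, a change of 1.1 ± 0.15 (adjusted p = 1.4e-06).

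EGR1's promoter is a textbook target of the serum response factor, which binds CArG boxes together with ERK-activated ETS partners, and is shown for that reason. The RefSeq promoter table (GRCh38.p14) holds 250 bases before to 50 bases after the start of each gene, and 13864 of the measured genes have an entry. In EGR1's window (chr5:138465229-138465528, plus strand) the capitals mark 2 CArG boxes, 105 and 83 bases before the start.
EGR1: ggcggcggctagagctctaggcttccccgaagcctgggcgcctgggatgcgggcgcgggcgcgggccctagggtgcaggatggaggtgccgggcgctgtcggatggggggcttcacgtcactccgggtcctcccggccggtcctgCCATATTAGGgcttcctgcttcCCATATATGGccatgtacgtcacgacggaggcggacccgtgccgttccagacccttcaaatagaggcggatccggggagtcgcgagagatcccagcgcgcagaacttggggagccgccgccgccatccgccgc
A CArG box was found in 1.29% of all 27305 promoters in the table, and in 2 of 17 promoters of the immediate early list. Such a match describes the letters and is not a measured site. Of the other motifs searched on both strands, the ETS word CCGGAAGT was in 4.44% of all promoters, the STAT word TTCCNGGAA in 1.22% and the EGR word GCGGGGGCG in 5.02%.

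Several growth factors that feed the pathway fell as well. Of 10 EGF receptor ligands, 4 were lower and 2 higher, with a median of -0.04. The dim EGF and BTC changed by 0.49 and 0.33, calls that some alternatives lost. HBEGF, a membrane-bound ligand of EGFR and ERBB4, had 8.68, 8.62 and 8.81 with selumetinib, against 10.94, 10.94 and 11.01 in siCONTROL, which is 20.9% of siCONTROL (change -2.26 ± 0.18, adjusted p = 4e-11). EREG, epiregulin, had 8.32, 8.20 and 8.13 with selumetinib, against 10.35, 10.09 and 10.11 in siCONTROL, a change of -1.97 ± 0.16. The groups did not overlap for either ligand. TGFA changed by -1.32 ± 0.17 and NRG1, the ligand of ERBB3 and ERBB4, by -0.56 ± 0.10.

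Receptors moved both ways. Of 42 receptor tyrosine kinases 6 were higher and 7 lower (31% called), with a median of 0.07. Over all genes 7.36% were higher and 10.3% lower (17.7% called). Without siCONTROL array B 3 of the receptors were higher and 5 lower, and without 24 h array B 6 were higher and 3 lower. The collagen receptor DDR1 had 8.25, 8.07 and 8.04 with selumetinib, against 6.90, 7.12 and 7.20 in siCONTROL, a change of 1.05 ± 0.14 (adjusted p = 7.6e-07). ERBB2, the co-receptor of ERBB3, had 7.93, 7.80 and 7.92 with selumetinib, against 7.19, 7.40 and 7.36 in siCONTROL, a change of 0.56 ± 0.12. In contrast MERTK, a receptor of the TAM family, changed by -1.21 ± 0.13, KDR by -0.70 ± 0.15 and EGFR by -0.44 ± 0.10. Within the cascade itself 2 of 27 measured members were higher and 5 lower (median 0.02), and repeated quantile normalization made that 7 and 5. The share called was 25.9%, against 17.7% of all genes, and the share higher was close to the 7.36% over all genes. Without siCONTROL array B 1 was higher and 3 lower, and without 24 h array C 3 were higher and 3 lower. The RAS-inactivating protein RASA2 changed by -1.22 ± 0.14 and the adaptor GAB2 by -0.75 ± 0.17. MAPK3, which encodes ERK1, and the adaptor SHC1 changed by 0.50 and 0.39, calls that some alternatives lost.

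Many genes of the G1 phase, DNA replication and ribosome production fell with selumetinib, and few rose. Of 26 genes for G1 cyclins, CDK inhibitors, RB and E2F proteins, 13 were lower and 2 higher, with a median of -0.37. CCND1, cyclin D1, the link from ERK to the cell cycle, had 9.49, 9.37 and 9.60 with selumetinib, against 10.89, 10.95 and 11.11 in siCONTROL. That is 35.5% of siCONTROL with no overlap (change -1.49 ± 0.12, adjusted p = 1.4e-11). The phosphatase CDC25A, which removes inhibitory phosphates from CDKs, changed by -1.27 ± 0.12, the cyclin CCNE2 by -1.08 ± 0.16 and the activator E2F3 by -1.06 ± 0.16. CDKN1B, the CDK inhibitor p27, had 10.03, 9.85 and 10.07 with selumetinib, against 9.18, 9.16 and 9.24 in siCONTROL, a change of 0.79 ± 0.11 (adjusted p = 3.6e-06). The other member that rose was the cyclin CCND3, by 0.43 ± 0.13. In a bulk sample, a smaller share of cycling cells and less RNA in each cycling cell cannot be told apart.

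Of 42 measured DNA replication genes 31 were lower and 0 higher, and the list median was -0.54. DTL, the substrate receptor of the ligase that degrades the licensing factor CDT1, had 8.98, 8.91 and 8.98 with selumetinib, against 9.92, 10.03 and 9.99 in siCONTROL. No array overlapped, and the change was -1.02 ± 0.10 (adjusted p = 2.6e-09). The replication initiation factor MCM10 had 7.81, 7.64 and 7.89 with selumetinib, against 8.70, 8.90 and 8.92 in siCONTROL, a change of -1.06 ± 0.13. The origin recognition subunits ORC6 and ORC1 changed by -1.0 and -0.80, the helicase loader CDC6 by -0.87 and the flap nuclease FEN1 by -0.71. The falls were moderate in size: the largest in the list was that of MCM10, to 48% of siCONTROL. Of 44 genes of G2/M and mitosis 15 were lower and 1 higher (median -0.21), and without siCONTROL array B 9 were lower and 1 higher. The centriole kinase PLK4 changed by -0.63 ± 0.12 the phosphatase CDC25B, the riser, by 0.47 ± 0.12, and the kinesins KIF14 and KIF23 by -0.59 and -0.56.

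The E2F word, TTTCGCGC or TTTGGCGC on either strand, was present in 11 of 36 replication promoters (30.6%), against 1.68% of the measured genes' promoters and 1.18% of all promoters. It was in 3.63% of the 1516 promoters of lower genes and in 0.933% of the 1072 promoters of higher genes. The windows of DTL and of MCM6, a subunit of the replicative helicase, are shown as examples, and MCM6 was picked for its matches. MCM6 itself changed by -0.50 ± 0.10 (adjusted p = 0.00034). In DTL (chr1:212035498-212035797, plus strand) the capitals mark a CRE word, TGACGTCA, 17 bases and an E2F word 8 bases before the start. In MCM6 (chr2:135876394-135876693, minus strand) each capital run holds an E2F word on both strands that overlap by 4 bases, starting 152, 148, 90 and 86 bases before the start.
DTL: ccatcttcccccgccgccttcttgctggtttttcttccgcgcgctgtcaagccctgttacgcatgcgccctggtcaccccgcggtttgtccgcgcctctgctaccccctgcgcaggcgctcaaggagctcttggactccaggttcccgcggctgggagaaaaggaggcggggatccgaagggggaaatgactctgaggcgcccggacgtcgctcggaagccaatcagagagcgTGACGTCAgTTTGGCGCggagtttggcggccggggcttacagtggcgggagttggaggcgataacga
MCM6: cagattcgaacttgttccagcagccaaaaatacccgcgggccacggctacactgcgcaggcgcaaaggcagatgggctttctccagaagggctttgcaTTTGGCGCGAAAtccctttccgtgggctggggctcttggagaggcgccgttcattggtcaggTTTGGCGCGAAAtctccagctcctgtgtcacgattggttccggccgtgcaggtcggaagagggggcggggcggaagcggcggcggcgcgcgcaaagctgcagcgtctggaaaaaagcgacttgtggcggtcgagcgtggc
The CRE word was in 1.98% of all promoters. None of these shares was tested.

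Of 32 genes of MYC and ribosome biogenesis 18 were lower and 1 higher, with a median of -0.46. MYC, whose protein ERK stabilises, had 10.42, 10.37 and 10.32 with selumetinib, against 10.98, 11.01 and 11.08 in siCONTROL, a change of -0.66 ± 0.10 (adjusted p = 7.3e-06). ODC1, the first enzyme of polyamine synthesis, had 10.12, 10.04 and 10.13 with selumetinib, against 11.15, 11.35 and 11.36 in siCONTROL, a change of -1.19 ± 0.08. Both genes were lower on every drug array than on any control array. Among ribosome assembly factors RRS1 changed by -1.30 ± 0.15, WDR43 by -0.77 ± 0.11, DKC1, the pseudouridine synthase of ribosomal RNA, by -0.64 ± 0.08 and NOP58 by -0.59 ± 0.08. The riser was MXD4, a MAX partner that opposes MYC, with a change of 0.83 ± 0.15.

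Several secreted inflammatory factors were lower with selumetinib. Of 22 genes of the IL6, CSF and IL1 families 8 were lower and 5 higher, with a median of -0.06. IL1B had 8.09, 7.77 and 7.57 with selumetinib, against 10.49, 10.52 and 10.42 in siCONTROL, which is 15.8% of siCONTROL (change -2.66 ± 0.19, adjusted p = 1.1e-12). IL1A had 6.94, 6.54 and 6.51 with selumetinib, against 9.31, 9.15 and 8.92 in siCONTROL, a change of -2.46 ± 0.16. For both interleukins the highest drug array was more than 1 unit below the lowest control array. LIF changed by -1.61 ± 0.17, IL11 by -1.42 ± 0.12 and CSF3, which encodes G-CSF, by -1.22 ± 0.15. The receptor IL1R1 rose instead, with 8.14, 7.73 and 7.76 with selumetinib, against 6.77, 6.72 and 6.61 in siCONTROL (1.18 ± 0.14, adjusted p = 1.2e-07). IL6, named after its value was seen, rose by 0.74 ± 0.15 (adjusted p = 0.0003).

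Of 18 chemokines 3 were lower and 2 higher (median 0.06), so the list as a whole did not fall. The share called was 27.8%, against 10.3% lower and 7.36% higher over all genes (17.7% called). CXCL8, interleukin 8, had 7.06, 6.68 and 6.80 with selumetinib, against 10.23, 9.47 and 9.34 in siCONTROL, which is 14% of siCONTROL (change -2.83 ± 0.25, adjusted p = 2e-10). Array A was the highest of its group in both, and the groups were more than 2 units apart. The neutrophil attractants CXCL2 and CXCL3 changed by -1.13 ± 0.15 and -0.99 ± 0.16, and the eosinophil attractant CCL26 by 0.70 ± 0.12. NLRP3, the sensor of the inflammasome that matures interleukin 1, had 4.66, 4.51 and 4.22 with selumetinib, against 7.27, 7.08 and 6.87 in siCONTROL, a change of -2.60 ± 0.15 (adjusted p = 6.6e-15). Of 19 NF-kB feedback and target genes 6 were lower and 3 higher, with a median of -0.15. The prostaglandin synthase PTGS2 changed by -1.04 ± 0.18 and the deubiquitinase TNFAIP3 by -0.78 ± 0.17, while the nuclear IkB protein BCL3 changed by 1.16 ± 0.12, TNFAIP2 by 1.05 ± 0.12 and the mitochondrial superoxide dismutase SOD2 by 0.69 ± 0.15.

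The gene with the largest fall of all was TNFSF15 (TL1A), a TNF family cytokine that binds the receptor DR3. It had 5.88, 5.69 and 5.64 with selumetinib, against 10.47, 10.44 and 10.18 in siCONTROL. With the drug its level was 4.04% of siCONTROL (change -4.63 ± 0.21, adjusted p = 7.1e-17), and the groups were more than 4 units apart. Its promoter window (chr9:114792481-114792780, minus strand) is shown because it holds an AP-1 word, TGANTCA, the word bound by FOS and JUN proteins, 120 bases before the start, in capitals.
TNFSF15: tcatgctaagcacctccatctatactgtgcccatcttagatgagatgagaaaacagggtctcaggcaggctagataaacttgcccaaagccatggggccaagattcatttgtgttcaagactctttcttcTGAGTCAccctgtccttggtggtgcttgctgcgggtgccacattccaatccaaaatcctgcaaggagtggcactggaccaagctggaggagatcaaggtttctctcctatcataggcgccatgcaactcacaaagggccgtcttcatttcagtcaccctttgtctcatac
That word was in 7.76% of all promoters and in 5.58% of the measured genes' promoters. It was in 5.21% of the promoters of lower genes and in 5.6% of those of higher genes. It was in 17 of the 154 promoters of genes at least 2-fold lower and in 14 of the 137 promoters of genes at least 2-fold higher.

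Many genes of antigen presentation and of the interferon response rose with selumetinib, and few fell. Of 22 measured genes of MHC class I and II presentation 12 were higher and 1 lower, with a median of 0.36. Class II molecules, which show peptides to CD4 T cells and are otherwise typical of immune cells, led the list. HLA-DMB, a chaperone that loads peptides on class II, had 8.66, 8.63 and 8.76 with selumetinib, against 6.94, 7.16 and 6.96 in siCONTROL. No array overlapped, and the level was 3.18 times that of siCONTROL (change 1.67 ± 0.17, adjusted p = 3.2e-09). Its partner HLA-DMA had 10.10, 10.06 and 10.21 with selumetinib, against 8.83, 8.82 and 8.82 in siCONTROL, a change of 1.30 ± 0.16. The chains HLA-DQA1, HLA-DQB1, HLA-DPB1 and HLA-DPA1 changed by 1.74, 1.28, 1.06 and 0.98. HLA-DRA, outside the rule for naming, changed by 0.82 ± 0.17, and CIITA, the class II activator, also outside it, by 0.32 ± 0.11 (adjusted p = 0.044). The immunoproteasome subunit PSMB9 changed by 0.82 ± 0.15 and TAP2, a subunit of the peptide transporter and the member that fell, by -0.49 ± 0.13. HLA genes have near-identical relatives, so a probe may measure more than its named gene.

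Of 37 interferon-responsive genes 16 were higher and 2 lower, with a median of 0.23. IFIT1, an antiviral protein that binds foreign RNA, had 8.77, 8.65 and 8.75 with selumetinib, against 7.84, 7.55 and 7.33 in siCONTROL, a change of 1.15 ± 0.14 (adjusted p = 1.9e-07). GBP2, a guanylate-binding protein, had 8.87, 8.85 and 8.62 with selumetinib, against 8.0, 7.80 and 7.55 in siCONTROL, a change of 1.0 ± 0.16. In both genes control array A was the highest control and still lay below every drug array. IFITM1 changed by 0.98 ± 0.16, IFI35 by 0.88 ± 0.14, MX2 by 0.77 ± 0.12 and IFIT2 by 0.69 ± 0.11. The members that fell were RIGI, a sensor of viral RNA, by -0.93 ± 0.16, and GBP3, by -0.72 ± 0.18.

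The BCL2 family, which sets the threshold of mitochondrial cell death, had 2 of 18 measured members higher and 4 lower (median -0.02). The risers were BH3-only killers. BMF had 6.54, 6.19 and 6.17 with selumetinib, against 5.27, 5.15 and 5.28 in siCONTROL, a change of 1.07 ± 0.14 (adjusted p = 8.1e-07), and BCL2L11, which encodes BIM, changed by 0.54 ± 0.12 (adjusted p = 0.001). The members that fell are survival proteins. MCL1 had 10.42, 10.28 and 10.30 with selumetinib, against 11.30, 11.35 and 11.26 in siCONTROL, a change of -0.97 ± 0.09. BCL2A1 changed by -1.31 ± 0.20, BCL2 by -0.55 ± 0.11 and BCL2L1, which encodes BCL-XL, by -0.47 ± 0.13.

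The death ligand TNFSF10 (TRAIL) was 1 of the largest rises, and 3 of its receptors were lower. TNFSF10 had 10.53, 10.39 and 10.23 with selumetinib, against 7.31, 7.45 and 6.95 in siCONTROL. It was 8.86 times the siCONTROL level with no overlap (change 3.15 ± 0.16, adjusted p = 2e-16). The death receptors TNFRSF10A and TNFRSF10B changed by -0.92 ± 0.15 and -0.91 ± 0.12, and the decoy receptor TNFRSF10D by -0.89 ± 0.16. Over the 12 genes of the TRAIL and FAS list 1 was higher and 4 lower, with a median of -0.04, and the adaptor FADD completed the falls at -0.27, a call that some alternatives lost.

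Genes known to respond to FOXO factors and starvation were higher in 13 of 29 cases and lower in 1, with a median of 0.36. Without siCONTROL array B, or without C, 8 were higher and 1 lower. The selenium carrier SELENOP had 6.20, 5.94 and 6.07 with selumetinib, against 4.20, 4.37 and 4.77 in siCONTROL, a change of 1.63 ± 0.13 (adjusted p = 4.4e-11). The coactivator-binding CITED2 had 11.82, 11.60 and 11.66 with selumetinib, against 10.68, 10.58 and 10.35 in siCONTROL, a change of 1.16 ± 0.13. TSC22D3, the glucocorticoid-induced leucine zipper, changed by 0.96 ± 0.17 and the arrestin relative ARRDC3 by 0.77 ± 0.13. The member that fell was SESN2, a sensor of leucine, by -0.74 ± 0.15.

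Genes of lipid synthesis and of the lysosome rose more often than they fell. Of 29 measured genes of cholesterol and fatty acid synthesis 13 were higher and 0 lower, with a median of 0.31. SREBF1, the transcription factor that drives fatty acid synthesis, had 9.05, 8.83 and 8.94 with selumetinib, against 7.63, 7.65 and 8.04 in siCONTROL, a change of 1.17 ± 0.19 (adjusted p = 2.5e-05). The list also holds ABCA1, a cholesterol exporter and not a synthesis gene. It had 9.04, 8.98 and 8.99 with selumetinib, against 7.62, 8.07 and 7.96 in siCONTROL, a change of 1.11 ± 0.11. Every drug array lay above every control array in both. The lanosterol synthase LSS changed by 0.85 ± 0.10, the desaturase SCD by 0.82 ± 0.10 and the acetyl-CoA carboxylase ACACA by 0.49 ± 0.09.

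Of 47 lysosome and autophagy genes 15 were higher and 3 lower, with a median of 0.21. The sialidase NEU1 had 9.57, 9.64 and 9.61 with selumetinib, against 8.60, 8.81 and 9.03 in siCONTROL, a change of 0.80 ± 0.14 (adjusted p = 5.8e-05). CTSD, cathepsin D, had 12.15, 12.12 and 12.23 with selumetinib, against 11.56, 11.49 and 11.64 in siCONTROL, a change of 0.60 ± 0.11. The carboxypeptidase CTSA, which holds NEU1 in a complex, changed by 0.39 ± 0.07 and the ceramidase ASAH1 by 0.42 ± 0.08. The members that fell were UVRAG, CTSL and FNIP2, by -0.47, -0.38 and -0.36. The palindrome TCACGTGA, the core of the CLEAR element bound by TFEB, was in 6 of 32 lysosomal promoters (18.8%), against 1.49% of the measured genes' promoters and 1.04% of all promoters. CTSA's window (chr20:45891085-45891384, plus strand) carries it 26 bases before the start, in capitals.
CTSA: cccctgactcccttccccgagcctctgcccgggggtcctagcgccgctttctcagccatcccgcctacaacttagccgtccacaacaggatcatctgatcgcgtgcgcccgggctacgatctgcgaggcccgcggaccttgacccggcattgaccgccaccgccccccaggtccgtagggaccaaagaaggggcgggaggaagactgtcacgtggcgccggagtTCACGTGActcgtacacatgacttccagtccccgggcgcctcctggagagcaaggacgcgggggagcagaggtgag
The word was in 1.96% of the promoters of higher genes and in 1.72% of those of lower genes.

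Cell state markers moved in more than 1 direction. Of 37 epithelial genes 15 were higher and 1 lower, with a median of 0.20. The mucin MUC1 had 7.61, 7.23 and 7.48 with selumetinib, against 5.31, 5.27 and 5.28 in siCONTROL, which is 4.45 times siCONTROL (change 2.15 ± 0.21, adjusted p = 1.4e-09). KRT7, a keratin of simple epithelia, had 10.15, 10.12 and 10.29 with selumetinib, against 8.54, 8.54 and 8.85 in siCONTROL, a change of 1.55 ± 0.17. The groups did not overlap in either. The epithelial ETS factor ELF3 changed by 1.24 ± 0.13 and CLDN7 by 1.09 ± 0.14, while the tight junction protein CLDN1 changed by -1.22 ± 0.15. CDH1, E-cadherin, outside the rule for naming, was higher, at 4.68 ± 0.17 with selumetinib against 4.30 ± 0.08 in siCONTROL (SD, n = 3 each), a change of 0.38 ± 0.13 (adjusted p = 0.036) between dim signals.

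Some mesenchymal genes rose too, 6 of 20, and 1 fell, with a median of 0.13. SNAI1, a repressor of E-cadherin, had 6.73, 6.24 and 6.39 with selumetinib, against 5.43, 5.07 and 5.08 in siCONTROL, a change of 1.26 ± 0.16 (adjusted p = 2.3e-07). SNAI2 had 10.46, 10.41 and 10.51 with selumetinib, against 9.44, 9.40 and 9.45 in siCONTROL, a change of 1.03 ± 0.16. ZEB1, another repressor of epithelial genes, changed by -0.53 ± 0.08. The mesenchymal filament VIM was at 12.06 with selumetinib and 12.15 in siCONTROL, and was not called.

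Genes of TGF-beta, BMP and ID proteins split, with 11 of 43 higher and 8 lower (median 0.03). The ID proteins, which block basic helix-loop-helix factors and are targets of BMP signalling, rose. ID3 had 8.72, 8.69 and 8.96 with selumetinib, against 5.92, 6.11 and 6.01 in siCONTROL, which is 6.85 times siCONTROL (change 2.78 ± 0.17, adjusted p = 3.9e-14). ID2 had 6.16, 5.71 and 5.87 with selumetinib, against 4.04, 4.08 and 4.34 in siCONTROL, a change of 1.76 ± 0.21. ID1, ID4 and the ligand BMP4, all outside the rule for naming, changed by 0.93 ± 0.14, 0.74 ± 0.18 and 1.05 ± 0.16. The BMP pseudoreceptor BAMBI changed by 1.42 ± 0.21 and the ligand TGFB2 by 1.29 ± 0.12, while the latent TGF-beta binding protein LTBP1 changed by -1.14 ± 0.11 and the TGF-beta target PMEPA1 by -0.94 ± 0.11.

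Of 29 YAP and TEAD target genes 7 were lower and 6 higher (median -0.10). CCN2, a matricellular protein, had 8.34, 8.12 and 8.33 with selumetinib, against 10.83, 10.72 and 10.71 in siCONTROL, which is 17.8% of siCONTROL (change -2.49 ± 0.19, adjusted p = 1.4e-11). The YAP relative WWTR1 (TAZ) changed by -0.66 ± 0.10 and the ectonucleotidase NT5E by -0.87 ± 0.09. AJUBA, among the 6 that rose, changed by 0.56 ± 0.10. Matrix genes were mixed, with 7 of 36 higher and 6 lower (median 0.04), and without siCONTROL array B 6 were higher and 3 lower. Thrombospondin, THBS1, changed by 1.16 ± 0.09 and TGFBI by 0.98 ± 0.10, while laminin LAMB1 changed by -1.42 ± 0.11, the transmembrane collagen COL13A1 by -1.40 ± 0.16 and tenascin, TNC, by -0.90 ± 0.12. Of 29 metalloproteases and plasminogen system genes 9 were lower and 2 higher (median -0.14). The protease ADAMTS1 had 7.66, 7.50 and 7.41 with selumetinib, against 9.47, 9.48 and 9.46 in siCONTROL, a change of -1.95 ± 0.20 (adjusted p = 3.6e-09). The plasminogen activators PLAU and PLAT and the receptor PLAUR changed by -0.92, -0.91 and -0.76.

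The largest rises were mostly outside these lists. FGG, the gamma chain of fibrinogen, had 8.29, 7.40 and 7.21 with selumetinib, against 4.17, 3.87 and 4.20 in siCONTROL, which is 11.8 times siCONTROL (change 3.56 ± 0.17, adjusted p = 8.5e-17). FGB, the beta chain, had 7.14, 7.17 and 6.90 with selumetinib, against 4.26, 4.17 and 4.26 in siCONTROL, a change of 2.84 ± 0.14. The control values of both chains lay among the dimmest of the array, and array A was the brightest drug array for FGG. SERPINB3, a serine and cysteine protease inhibitor with a near-identical neighbour, had 9.10, 8.93 and 8.77 with selumetinib, against 5.99, 5.42 and 5.20 in siCONTROL, a change of 3.40 ± 0.18. PDE7B, a phosphodiesterase specific for cyclic AMP, had 9.08, 9.05 and 9.27 with selumetinib, against 5.97, 6.16 and 6.09 in siCONTROL, a change of 3.06 ± 0.15. NNMT, which methylates nicotinamide, had 10.40, 10.35 and 10.53 with selumetinib, against 7.80, 7.95 and 8.06 in siCONTROL, a change of 2.49 ± 0.10. In each of these genes the drug arrays were all above the control arrays, which the rule for picking the largest rises required. The other large rises were those of the secreted CCDC3 (2.70 ± 0.13), the vessel growth factor ANGPT1 (2.68 ± 0.15), the collagen cross-linking oxidase LOXL4 (2.44 ± 0.15), the hyaluronan-degrading CEMIP (2.36 ± 0.16) and the lysosomal nucleoside transporter SLC29A3 (2.26 ± 0.17).

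Among the largest falls outside the signalling lists, RPSAP52, a pseudogene transcript that lies antisense to HMGA2, had 4.83, 4.29 and 4.51 with selumetinib, against 8.06, 8.16 and 7.71 in siCONTROL, a change of -3.43 ± 0.13 (adjusted p = 2.8e-19). HMGA2 itself, outside the rule for naming, changed by -0.58 ± 0.13. The cysteine protease inhibitor CST1 had 5.07, 5.16 and 4.79 with selumetinib, against 7.72, 7.95 and 7.48 in siCONTROL, a change of -2.71 ± 0.41. ESM1, a proteoglycan of endothelial and tumour cells, changed by -2.52 ± 0.13, and MYEOV, a gene near CCND1 that is overexpressed in myeloma, by -2.51 ± 0.16.

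**Figure D3:**
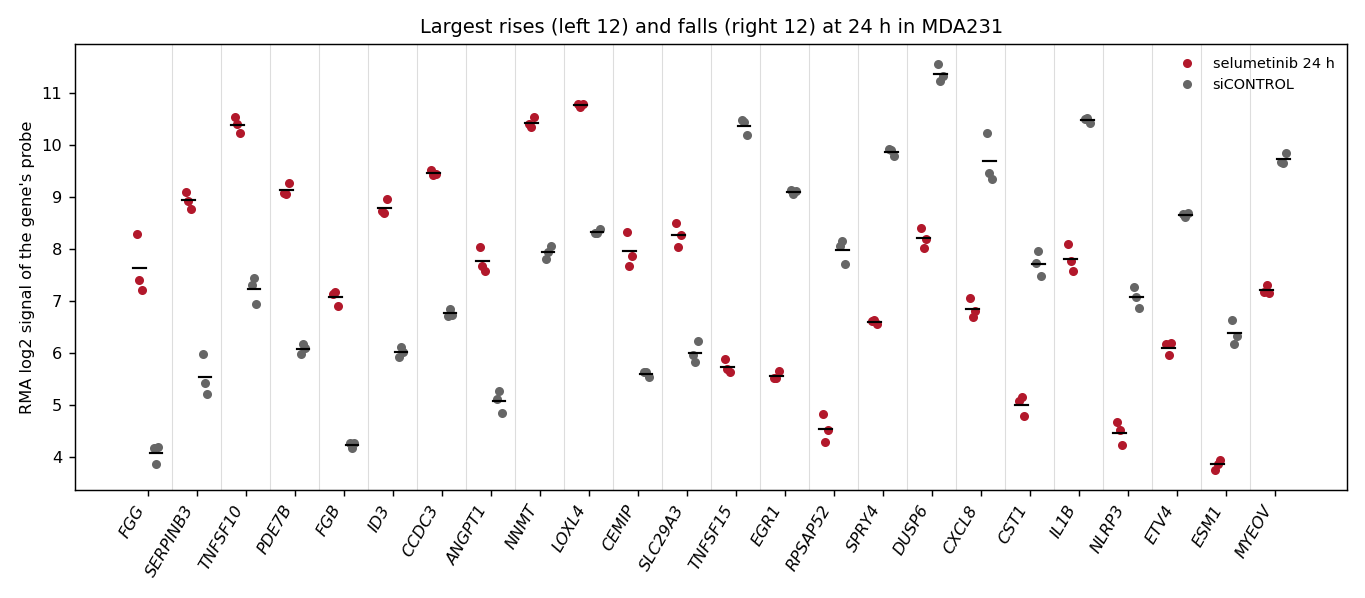
RMA log2 signal of the 12 genes with the largest rises (left) and the 12 with the largest falls (right) on the 3 selumetinib 24 h arrays (red) and the 3 siCONTROL arrays (grey), with bars at the means. The 24 genes were picked among called genes whose arrays do not overlap, so the separation follows from the choice. The group means lie from 2.26 (SLC29A3) to 4.63 (TNFSF15) units apart.

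Values at 4 h of selumetinib stand beside those at 24 h for the same genes; both use the siCONTROL arrays, so the comparisons are not independent. At 4 h 200 genes were higher and 2598 lower (1.11% and 14.5% of genes), but without the narrow 4 h arrays B and C 67 were higher and 91 lower, so counts at 4 h are not used further. DUSP6 had 11.55, 11.22 and 11.32 in siCONTROL, 7.35, 6.36 and 6.78 at 4 h and 8.39, 8.01 and 8.20 at 24 h. SPRY4 had 9.92, 9.89 and 9.79 in siCONTROL, 5.99, 5.22 and 5.44 at 4 h and 6.62, 6.63 and 6.55 at 24 h. Both were lowest at 4 h and had partly returned at 24 h, with a difference of 24 h minus 4 h of 1.37 ± 0.21 for DUSP6 and 1.05 ± 0.22 for SPRY4 (adjusted p = 8.2e-06 and 0.00045). Without the 4 h arrays B and C these differences were 0.85 and 0.61 (adjusted p = 0.046 and 0.24). DUSP4 changed by -2.35 at 4 h and by -1.26 at 24 h, a difference of 1.1 ± 0.17 that was 0.69 without those arrays (adjusted p = 1.1e-05 and 0.029).

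EGR1 changed by -3.33 at 4 h and by -3.54 at 24 h, CCN2 by -2.25 and -2.49, and NLRP3 by -2.54 and -2.60. The 24 h minus 4 h differences were -0.21 ± 0.17, -0.24 ± 0.19 and -0.06 ± 0.15 and were not called. Without the 4 h arrays B and C they were -0.69, -0.71 and -0.54, and those of EGR1 and NLRP3 were called (adjusted p = 0.037 and 0.038). Several replication genes were lower at 24 h than at 4 h. DTL had 9.92, 10.03 and 9.99 in siCONTROL, 10.08, 9.85 and 9.88 at 4 h and 8.98, 8.91 and 8.98 at 24 h. Its 24 h minus 4 h difference was -0.98 ± 0.10 (adjusted p = 9.7e-09), and it was -1.13 without the 4 h arrays B and C (adjusted p = 1.3e-06). MCM10 differed by -0.78 ± 0.13 and ORC1 by -0.92 ± 0.12 between the times, both still called without those arrays. Over all genes 4.48% were lower and 20.4% higher at 24 h than at 4 h. Of the 42 replication genes 20 were lower and 1 higher. Without those arrays the counts were 22 lower and 0 higher in the list, and 835 lower and 527 higher over all genes. After repeated quantile normalization they were 33 lower and 1 higher in the list, and 2050 lower and 3086 higher over all genes. The factors ETV4 and ETV5 changed by -0.89 and -1.16 at 4 h and by -2.56 and -2.28 at 24 h, so they were lower at 24 h than at 4 h, with differences of -1.67 ± 0.19 and -1.12 ± 0.16 (adjusted p = 1e-07 and 2.8e-06).

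**Figure D4:**
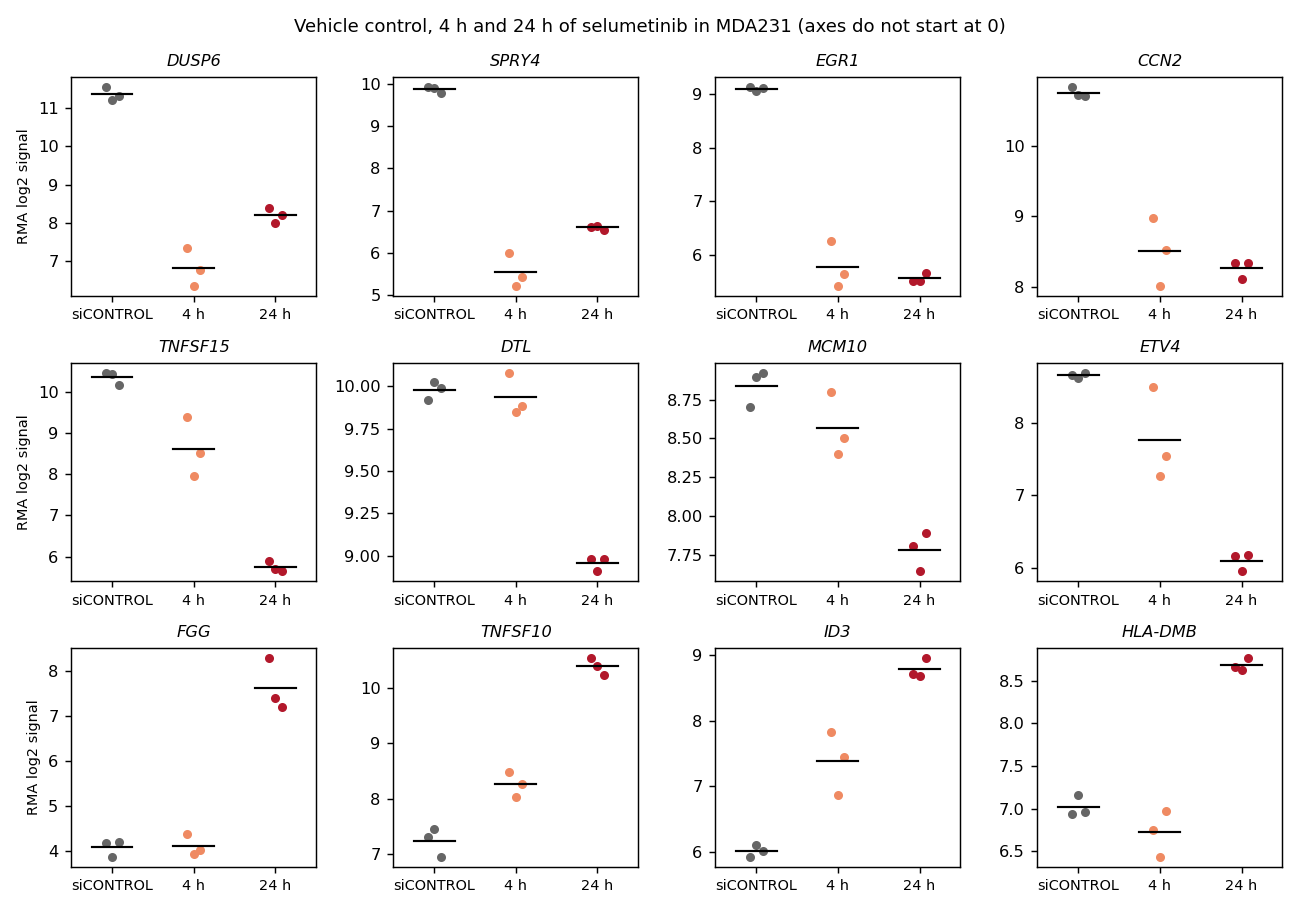
RMA log2 signal of 12 genes in MDA231 siCONTROL cells (grey), after 4 h (orange) and after 24 h (red) of selumetinib, 3 arrays each, with bars at the means; each panel has its own axis, which does not start at 0. DUSP6 and SPRY4 are lowest at 4 h, DTL and MCM10 are lower at 24 h than at 4 h, and FGG and HLA-DMB are higher at 24 h than at 4 h.

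Some of the large rises were late, and others had begun by 4 h. The naming rule also takes the largest rises of 24 h against 4 h. ANGPT1 and CCDC3 were among these, so their lateness follows in part from the choice. FGG had 4.17, 3.87 and 4.20 in siCONTROL, 4.38, 3.93 and 4.02 at 4 h and 8.29, 7.40 and 7.21 at 24 h, and its 24 h minus 4 h difference was 3.52 ± 0.17 (adjusted p = 1.5e-16). FGB, ANGPT1 and CCDC3 changed by -0.14, -0.01 and 0.10 at 4 h, against 2.84, 2.68 and 2.70 at 24 h. TNFSF10 and ID3 were already higher at 4 h, by 1.02 ± 0.16 and 1.37 ± 0.17, and differed by a further 2.12 ± 0.16 and 1.40 ± 0.17 at 24 h. HLA-DMB had 6.94, 7.16 and 6.96 in siCONTROL, 6.76, 6.44 and 6.97 at 4 h and 8.66, 8.63 and 8.76 at 24 h, a 24 h minus 4 h difference of 1.96 ± 0.17. The differences of these 7 genes were also called without the 4 h arrays B and C, the smallest being 0.95 for ID3 (adjusted p = 0.0019).

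The 24 h change in MDA231 was compared with the mean of the 24 h changes in SUM159PT and BT549. For these lines the titles disagree with other labels over which line is which, but their mean is the same either way. The difference, MDA231 minus the mean of the others, was called for 920 genes that were higher in MDA231 (5.12%) and for 533 that were lower (2.97%). It was at least 2-fold for 275 genes (1.53%). The array titled BT549 24 h A stood apart, with an upper quartile of 7.50 and the lowest mean correlation with its own group of the 36 arrays, 0.970. Without it the counts were 830 higher and 795 lower, and all 157 genes picked by the naming rule that had a called difference kept the call and its direction. TNFSF15 changed by -4.63 ± 0.21 in MDA231, against a mean of -0.09 in the other lines, a difference of -4.53 ± 0.26 (adjusted p = 3.7e-14). EGR1 changed by -3.54 in MDA231, against -0.89 in the others (-2.64 ± 0.21). CCN2 changed by -2.49 in MDA231, against -0.11 in the others (-2.38 ± 0.24), and IL1A by -2.46, against -0.15 (-2.31 ± 0.20). In the arrays titled SUM159PT and BT549 EGR1 changed by -0.15 and -1.64, and IL1A by -0.71 and 0.40, so the other lines were unlike each other in these genes.

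The feedback genes DUSP6 and SPRY4 fell in the other lines too, by less. DUSP6 changed by -3.16 in MDA231, against -1.62 in the others (-1.55 ± 0.25, adjusted p = 6.1e-05), and SPRY4 by -3.26, against -1.14 (-2.12 ± 0.26). In the arrays titled SUM159PT and BT549 DUSP6 changed by -2.28 and -0.96, and SPRY4 by -1.35 and -0.93. For DUSP4 the change of -1.26 in MDA231, against -0.79 in the others, differed by -0.47 ± 0.21 and was not called (adjusted p = 0.19). CCND1 changed by -1.49 in MDA231, against -0.61 (-0.88 ± 0.14, adjusted p = 5e-05). Of the 42 replication genes 9 were called lower in MDA231 than in the mean of the others, and 0 higher. Over all genes 2.97% were lower and 5.12% higher. After repeated quantile normalization 20 were lower and 0 higher in the list, and 1085 lower and 1102 higher over all genes. Without the array titled BT549 24 h A 12 were lower and 0 higher in the list, and 795 lower and 830 higher over all genes.

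Among rises, SERPINB3 changed by 3.40 in MDA231, against -0.15 in the other lines, PDE7B by 3.06, against -0.22, and FGG by 3.56, against 0.29. In this comparison of lines 5.12% of all genes were called higher in MDA231 and 2.97% lower. Of the 22 MHC genes 10 were called higher in MDA231 than in the mean of the others and 0 lower. HLA-DMB changed by 1.67 in MDA231, against -0.22 in the others (1.89 ± 0.20, adjusted p = 4.6e-08), and HLA-DPB1 by 1.06, against -0.32 (1.38 ± 0.21). Of 29 genes of the lipid synthesis list 9 were called higher and 0 lower. SREBF1 changed by 1.17 in MDA231, against 0.21 (0.95 ± 0.23). The exporter ABCA1, which the list also holds, changed by 1.11, against -0.23 (1.34 ± 0.13). TGFB2 moved apart, by 1.29 in MDA231, against -0.57 in the others (1.87 ± 0.15, adjusted p = 6.8e-11), and IL6 by 0.74, against -0.83 (1.56 ± 0.18, adjusted p = 1.3e-07).

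**Figure D5:**
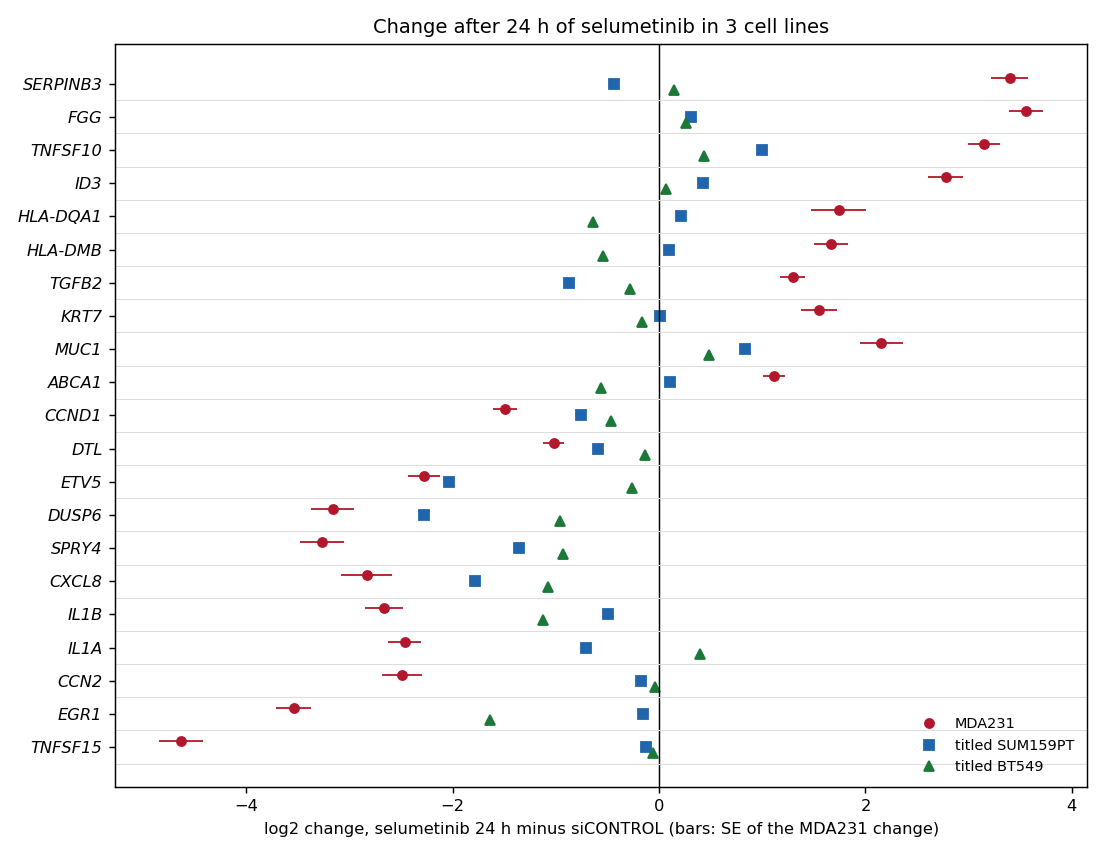
Change on the log2 scale after 24 h of selumetinib against siCONTROL for 21 genes in MDA231 (red circles, bars are the SE) and in the arrays titled SUM159PT (blue squares) and BT549 (green triangles), 3 arrays per group. SERPINB3, FGG and the HLA genes lie to the right in MDA231, and TNFSF15, EGR1 and CCN2 lie far to the left of both other lines.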

How the data were processed

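Per the submitters' processing notes, the authors made the deposited log2 values in Affymetrix Expression Console 1.1 by RMA; the summary options and the array's genome build were not given in the sources used here. Of 33297 probes, 19181 had 1 gene symbol in the platform annotation, 2055 had several and 12061 are not named here. The single-symbol probes gave 17958 genes, 895 of them with several probes. No filter on dim genes was applied. limma 3.58.1 (R 4.3.3, lmFit and eBayes) fitted 1 mean per group to the 36 arrays, with 24 residual and 7.80 prior degrees of freedom, after a test on simulated data. Errors are limma's SE. How many arrays each group has limits the precision. The genes and 34 lists were chosen with earlier results of these data known, and 75 list entries had no single-symbol probe and were not analysed here.

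Named were DUSP4, the 12 largest rises and falls, the 6 called genes of lowest adjusted p in each list, and the 6 largest changes each way of 24 h against 4 h and of MDA231 against the other lines, passing over unnamed loci and small RNAs. That rule picked 203 genes. Others, such as those completing a count of 5 or fewer, were named after their values were seen, among them TRIB2, FOSL2, CCND3, CDC25B, MXD4, PSMB9, TAP2, RIGI, GBP3, SESN2, CTSL, FNIP2 and ID4. Promoters are RefSeq's, and 8 motifs were counted with Python 3.11.15. Alternatives were the arrays in the fit, the replicate letters as a block, scaling, a dim filter, all probes of a gene, the variance prior and each array left out. Deviations of same-letter arrays from their group means had correlations of -0.09, -0.41 and 0.34 for A, B and C. With means of 3 arrays each, these values cannot decide whether the letters pair the arrays.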

Additional observations from a re-analysis of the deposited data

Results flagged for a closer look

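The 24 h change in MDA231 differed from the mean change of the other lines, by limma's test of the difference itself, for 920 genes that were higher in MDA231 and 533 that were lower. Of the 203 genes picked by the naming rule, 157 had such a difference, and for 72 it was at least 2-fold. Those 72 are given here in log2 units, MDA231 minus the mean of the other lines, and the 85 smaller ones are counted only. The rule itself picks the 6 largest differences each way, so the first values are large by choice.

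Higher in MDA231 were the following. The differences were 3.54, 3.27, 3.27, 2.71, 2.53 and 2.51 for SERPINB3, PDE7B, FGG, FGB, ID3 and LOXL4. For CEMIP, NNMT, TNFSF10, CCDC3, SLC29A3 and ANGPT1 they were 2.51, 2.49, 2.43, 2.43, 2.35 and 2.14. HLA-DQA1, HLA-DMB, TGFB2, EGLN3, KRT7 and MUC1 differed by 1.95, 1.89, 1.87, 1.73, 1.62 and 1.49. The differences were 1.46, 1.43, 1.41, 1.38, 1.34 and 1.32 for IL1R1, HLA-DMA, ID2, HLA-DPB1, ABCA1 and SNAI1. For HLA-DPA1, SELENOP, HLA-DQB1, KRT80, DDIT4 and JUND they were 1.29, 1.26, 1.24, 1.19, 1.17 and 1.17. BAMBI, CITED2, TGFBI, SOX4 and ELF3 differed by 1.16, 1.04, 1.03, 1.02 and 1.0.

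Lower in MDA231 were the following. The differences were -4.53, -3.11, -2.95, -2.64, -2.62 and -2.59 for TNFSF15, RPSAP52, CST1, EGR1, ESM1 and NLRP3. For MYEOV, CCN2, IL1A, TMEM171, SPRY4 and SERPIND1 they were -2.41, -2.38, -2.31, -2.15, -2.12 and -2.11. FGF1, IL1B, ADAMTS1, DUSP5, PECAM1 and MERTK differed by -2.0, -1.86, -1.77, -1.63, -1.60 and -1.56. The differences were -1.55, -1.53, -1.53, -1.52, -1.52 and -1.45 for DUSP6, FOSL1, ETV4, COL13A1, JAG1 and HBEGF. For CXCL8, IL11, TGFA, LAMB1, LIF and BCL2A1 they were -1.40, -1.38, -1.36, -1.28, -1.20 and -1.20. ETV5, CXCL2, MAML3, FOS, HMGA1, KLF4 and EREG differed by -1.13, -1.08, -1.08, -1.08, -1.07, -1.05 and -1.02. For ETV5 the change in MDA231, -2.28, was close to that in the arrays titled SUM159PT, -2.03, and unlike that in the arrays titled BT549, -0.26. All 72 differences kept their call and direction without the array titled BT549 24 h A, which stood apart from its group.

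Probes that were not used for genes carried changes as well. Of 2055 probes with several gene symbols 106 were higher and 135 lower at 24 h with selumetinib, which is 11.7% of them, and of 12061 probes with no gene named here 110 were higher and 137 lower, which is 2.05%.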

How the results depend on the processing

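At 24 h against siCONTROL, 1322 genes were higher and 1858 lower. Fitting the 12 MDA231 arrays alone gave 823 and 1229 for that comparison and 2058 higher and 468 lower for 24 h against 4 h, in place of 3666 and 805. Repeated quantile normalization moved the genes lower at 24 h than at 4 h to 2050, and those lower in MDA231 than in the mean of the other lines to 1085 from 533; leaving out the narrow 4 h arrays B and C, an alternative added after seeing the data, moved the genes higher at 24 h than at 4 h to 527, with 835 lower. With the line-by-letter replicate block the counts at 24 h were 1288 higher and 1848 lower, 170 and 201 of them at least 2-fold, those of 24 h against 4 h were 3572 and 798, and those of MDA231 against the other lines 893 and 515. Leaving out 1 array at a time, with the spread pooled over groups, gave 1012 to 1144 higher and 1304 to 1901 lower at 24 h, 144 to 185 and 183 to 254 at least 2-fold, 1874 to 5701 higher (the lowest without 4 h array B, the highest without 4 h array A) and 572 to 945 lower for 24 h against 4 h, and 650 to 1115 higher and 404 to 795 lower for MDA231 against the other lines. The cause of these shifts was not tested. For the 203 genes picked by the rule the direction at 24 h held under each alternative tried. Fitting only the MDA231 groups, the letter block, the dim filter and the variance prior leave a gene's difference of means unchanged. They could not alter a direction, and leaving 1 array out cannot reverse a gene whose arrays do not overlap. The rule also picks large changes or low adjusted p in these same data, so kept directions and calls were favoured by the choice. Of 3029 recomputed values 63 lost their call, those of 15 genes, among them SPRY3, EGF, BTC, MAPK3, SHC1, FADD and PDGFRB. In the alternative with all probes of a gene the probe of lowest p stood for it, so agreement between its probes was not tested. The values used here carry no background signal, so its limit was not measured.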

Other observations

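Further gene groups were counted at 24 h in MDA231, where 17.7% of all genes were called. Of 32 genes of the integrated stress and amino acid response 9 were lower and 3 higher, with a median of -0.05, against 10.3% lower and 7.36% higher over all genes. The serine synthesis enzymes PSAT1 and PHGDH changed by -1.09 ± 0.13 and -0.75 ± 0.11, and the asparagine synthetase ASNS by -0.88 ± 0.13. PSAT1 had 7.92, 7.85 and 8.19 with selumetinib, against 9.07, 9.11 and 9.06 in siCONTROL, with no overlap. DDIT4, an inhibitor of mTORC1, had 11.53, 11.39 and 11.43 with selumetinib, against 10.40, 10.46 and 10.48 in siCONTROL, a change of 1.0 ± 0.11, and the stress protein NUPR1 changed by 1.18 ± 0.11. Of 33 genes of glycolysis and the response to hypoxia 5 were higher and 1 lower (median 0.15), a share called of 18.2%, and repeated quantile normalization made that 10 and 1. EGLN3, an oxygen sensor and HIF target, had 9.89, 9.69 and 9.50 with selumetinib, against 7.98, 8.10 and 7.90 in siCONTROL, a change of 1.70 ± 0.16, and the aldolase ALDOC changed by 1.06 ± 0.15, while ANGPTL4 changed by -1.34 ± 0.17.

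Of 26 Notch pathway genes 6 were lower and 2 higher (median 0.05), and without siCONTROL array B 4 were lower and 1 higher. The ligand JAG1 had 8.40, 8.16 and 8.19 with selumetinib, against 9.65, 9.75 and 9.86 in siCONTROL, a change of -1.50 ± 0.14. The target genes HES1 and HEY1 changed by -1.35 ± 0.14 and -0.93 ± 0.11, and the receptor NOTCH3 by 0.58 ± 0.11. Of 14 integrins 4 were lower and 0 higher (median -0.11): the collagen receptor subunits ITGA2 and ITGA10 changed by -0.92 ± 0.10 and -0.81 ± 0.11, the laminin receptor subunit ITGA6 by -0.74 ± 0.11 and ITGB5 by -0.92 ± 0.11. Of 22 markers of breast stem-like, luminal or basal cells 6 were lower and 3 higher (median -0.03). The 3 that rose were the stem cell receptor LGR5 (0.88 ± 0.11), the factor SOX4 (0.96 ± 0.14) and the surface protein CD24 (0.77 ± 0.16). More members fell, the lowest change in the list was -1.18, and the list as a whole did not rise. Of 11 fibroblast markers 1 (9.09%) was called, PDGFRB, at 4.81 ± 0.16 with selumetinib and 4.30 ± 0.16 in siCONTROL (SD, n = 3 each), a call that was lost under some alternatives.

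The genes CD274 and EPHA2, picked after their values were seen, were both lower. The immune checkpoint ligand CD274 (PD-L1) had 7.26, 6.68 and 6.68 with selumetinib, against 8.97, 8.93 and 8.70 in siCONTROL, a change of -1.99 ± 0.16 (adjusted p = 2.1e-11 in limma). The receptor EPHA2, of the ETS and ERK output list, changed by -1.47 ± 0.19 (adjusted p = 4.5e-07).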
